A study of Mus musculus with 6 samples.

Results

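Passenger strands of microRNAs (miRNAs), the star strands, were examined in full skin from the back of C3H/HeJ mice. This inbred strain is prone to spontaneous alopecia areata (AA), in which immune cells attack hair follicles and hair is lost. The members were all mouse miRNA probes of the array whose names end in an asterisk, except those of miR-297, miR-466, miR-467 and miR-669, and numbered 114 of 707 miRNA probes. The 4 star probes of the excepted families were not analysed here. The study comprised 6 arrays with a single fluorescent dye: 3 of skin with hair loss from mice with spontaneous AA and 3 of normal haired skin from unaffected control mice. All mice were of the same strain, neither group carries a stated treatment or engineered allele, and the labels give neither age nor sex. A design note speaks of several samples per mouse without tying them to arrays. P-values therefore cover the spread among these 6 arrays alone, part of which may be technical. RNA came from whole skin, in which fewer cells of a type and less RNA per cell cannot be told apart.

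A miRNA hairpin is cut by the nucleases Drosha and Dicer to a short duplex of RNA strands. The strand that is kept in an Argonaute protein, the guide, represses messenger RNAs that match its seed, while the passenger strand is mostly discarded. In the older nomenclature used on these arrays the asterisk marks the strand that was the less abundant when the miRNA was named, and newer names give the arm of the hairpin (5p or 3p) instead. Some hairpins deliver both strands, and which strand prevails can differ between tissues.

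Of the 114 star probes, 102 had a guide probe of the same name without the asterisk. For 9 others the guide was matched after removal of a copy number, as with miR-24-1*, miR-24-2* and miR-24. No guide was matched by name for miR-125b*, miR-199b* and miR-1982*. The target sequences of 104 star probes were identical to a mature RefSeq miRNA, 63 of them from the 3p arm and 41 from the 5p arm.

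The sequences of 6 of the 7 star strands detected on at least 3 arrays are shown with their guides where those were matched (miR-712* and miR-712 are named only), with the seed (bases 2 to 8) in capitals. They are given as deposited for the probes, and are identical to a mature RefSeq miRNA (GRCm38.p6) for all but miR-140 and miR-199b*. For miR-140 and miR-199b* no mature entry was matched, which does not mean that the genomic sequence differs.
miR-140*: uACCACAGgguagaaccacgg
miR-140: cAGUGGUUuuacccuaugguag
miR-3072*: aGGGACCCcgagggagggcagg
miR-3072: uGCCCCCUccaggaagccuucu
let-7d*: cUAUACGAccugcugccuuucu
let-7d: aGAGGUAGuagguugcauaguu
let-7b*: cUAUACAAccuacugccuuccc
let-7b: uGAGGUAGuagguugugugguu
miR-674*: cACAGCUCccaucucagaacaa
miR-674: gCACUGAGaugggaguggugua
miR-199b*: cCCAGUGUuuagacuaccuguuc
The star and guide of each of these pairs have different seeds, so each strand would match a different set of messenger RNAs. The seed of let-7b* was shared with let-7a* and let-7f* among the members, while let-7d* differs from it within the seed.

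Positions were taken from RefSeq on GRCm38.p6. miR-140* (RefSeq miR-140-3p) lies at chr8:107551288-107551308 on the plus strand, within the span of Wwp2, a ubiquitin ligase gene. miR-3072* (miR-3072-5p) lies at chr12:109747893-109747914 on the plus strand, within the span of the noncoding RNA gene Mirg. It lies 9419 bases from miR-154-3p, the nearest star member of a list of the imprinted Dlk1-Dio3 locus. let-7d* (let-7d-3p) lies at chr13:48536024-48536045 on the minus strand, let-7b* (let-7b-3p) at chr15:85707379-85707400 and miR-674* (miR-674-3p) at chr2:117185186-117185207, the last pair on the plus strand. let-7b* lies within the span of the noncoding gene Lncppara, and no other gene span of the RefSeq table held let-7d* or miR-674*. The table gives gene spans only, so exons and introns were not told apart.

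The hairpins of the star strands on which the results turn show where each strand lies, with the star strand in capitals.
Mir140: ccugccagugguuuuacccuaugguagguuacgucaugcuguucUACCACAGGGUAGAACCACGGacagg
Mir3072: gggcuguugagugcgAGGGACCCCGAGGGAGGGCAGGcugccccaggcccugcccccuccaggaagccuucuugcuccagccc
Mirlet7d: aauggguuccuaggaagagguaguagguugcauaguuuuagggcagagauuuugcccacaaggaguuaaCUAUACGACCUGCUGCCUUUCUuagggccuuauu
The star occupies the second strand of the stem in Mir140 (bases 45 to 65) and Mirlet7d (bases 70 to 91), and the first in Mir3072 (bases 16 to 37). Their guides occupy bases 6 to 27, 16 to 37 and 51 to 72, respectively.

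Star and guide sequences differed at the 5′ end, which is the end that Argonaute proteins hold and at which they are known to favour U. Of the 114 star sequences 22 (19.3%) began with U and 42 (36.8%) with C. Of the 102 guides of the same names 57 (55.9%) began with U and 11 (10.8%) with C. These shares describe the probe set and carry no test. The median GC content was 50% for the star probes and 45.5% for the guides. It was 50% for the star probes detected at least once and 48.9% for those never detected.

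Detection was set on each array. A probe was called detected where its mean raw intensity over 5 spots was above the 95th percentile of that array's 145 empty control spots, a level that ran from 197 in unaffected replicate 2 to 599 in AA replicate 2. Over all 707 miRNA probes, 97 to 202 were detected per array, and 157 on at least 3 of the 6 arrays. The arrays were not equally sensitive: the probes detected on all arrays stood, at the median, 16.9-fold (unaffected replicate 2) and 11.4-fold (unaffected replicate 3) above the empty spots, and 1.46 to 4.20-fold elsewhere, lowest in AA replicate 3. In unaffected replicate 1 and AA replicate 2 the empty spots were brighter than the median miRNA spot (274 against 168, and 490 against 399). The keratinocyte miRNAs miR-203 and miR-205 were detected on all 6 arrays, in keeping with the labelled tissue. The skeletal muscle miRNAs miR-1, miR-133a, miR-133b and miR-206 were also detected on all 6, and of the lymphocyte markers miR-150 was detected on 6, miR-142-3p and miR-155 on 0.

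Star strands were seldom above background. Of the 114 members, 88 (77.2%) were not detected on any array, 13 were detected on 1 array, 6 on 2 and 7 (6.14%) on at least 3. Of the 102 guides of the same names, 48 (47.1%) were detected on at least 3 arrays and 41 on none. Of all 707 miRNA probes, 157 were detected on at least 3 arrays and 249 on at least 1. Of the 589 probes without an asterisk, 150 were detected on at least 3, a lower share than that of the 102 guides. The star probes detected numbered 5, 2 and 13 in AA replicates 1 to 3 and 2, 18 and 13 in unaffected replicates 1 to 3, against 47, 35 and 42 guides in AA and 32, 58 and 58 guides in unaffected skin.

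**Figure D1:**
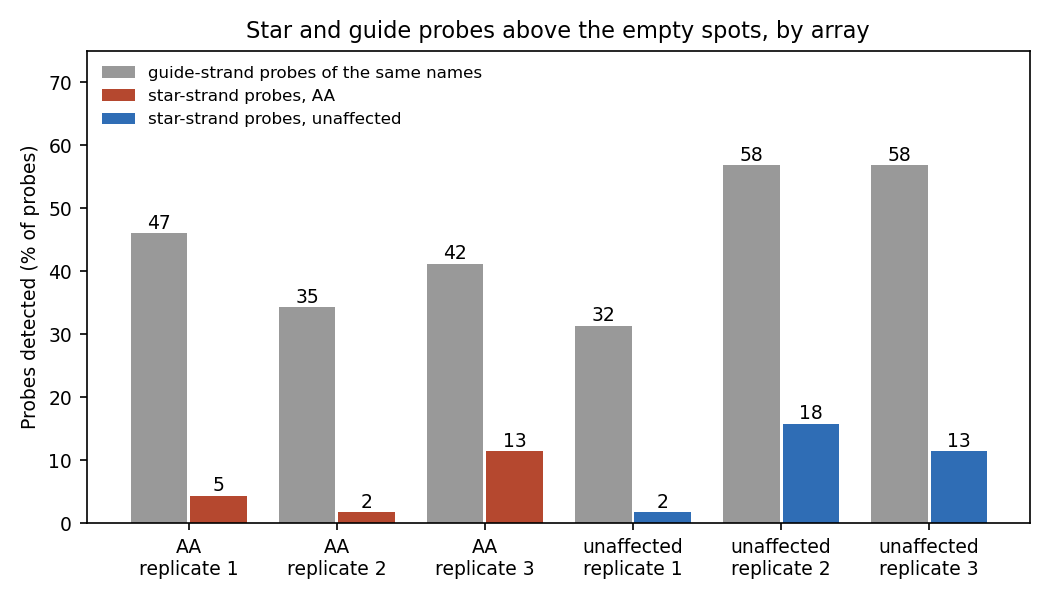
Share of probes detected above the empty spots on each of the 6 arrays (vertical axis, percent), for the 102 guide probes in grey and the 114 star probes in red (AA) or blue (unaffected), with the number of detected probes above each bar. The star share lies below the guide share on every array, between 2 and 18 star probes against 32 to 58 guides.

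The share of star probes detected was 7.75% ± 5.91 (SD, n = 6 arrays) and that of guides 44.4% ± 10.9. The difference of -36.7 percentage points had the same sign on 6 of 6 arrays (exact sign-flip permutation test over arrays, two-sided, p = 0.03125, the smallest it can give). The asterisk already marks the less abundant strand, so this direction was largely built into the probe sets. All arrays also hold the same probes, and no conclusion is drawn from the p-value. Between the groups, the AA arrays had a star share of 5.85% ± 4.99 and the unaffected arrays one of 9.65% ± 7.18 (SD over 3 arrays each), and these ranges overlapped (exact permutation test, two-sided, p = 0.7, smallest possible 0.1). Undetected star strands may still be present below the empty-spot level of these arrays.

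Stars of detected guides were mostly undetected, as were star strands in general. Of the 102 pairs of the same name, the guide was detected on at least 3 arrays in 48, and in 36 of these the star was never detected. Of the 31 pairs whose guide was detected on all 6 arrays, the star was never detected in 22. Among all 114 members 88 (77.2%) were never detected, so these counts do not set the stars of bright guides apart. In 34 pairs neither strand was ever detected. In 7 pairs the star was detected at least once and the guide never, those of miR-34c, miR-136, miR-140, miR-294, miR-299, miR-431 and miR-3072. Of these stars, miR-136*, miR-294*, miR-299* and miR-431* each passed on a single array, by 4.61%, 2.42%, 0.89% and 7.68%. Such margins do not show which strand prevails.

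By family, star strands of the let-7 family, whose guides mark differentiated cells and repress Lin28, were detected for 3 of 7 members (let-7b*, let-7d* and let-7f*), with all 6 guides of the same name detected on at least 3 arrays. None of the 6 star strands of the epithelial miR-200, miR-203 and miR-183 group was detected on any array, and all 6 of their guides were detected on at least 3. Of the proliferation-linked miR-17-92 cluster and its paralogs, 0 of 8 star strands were detected on any array, and 5 of 8 guides on at least 3. Counted likewise, the collagen-regulating miR-29 and miR-26 had 0 of 4 star strands and 2 of 4 guides. The blood and vessel group had 0 of 5 star strands and 3 of 5 guides. In the imprinted Dlk1-Dio3 list 4 of 13 star strands (miR-136*, miR-299*, miR-431* and miR-485*) were detected, each on 1 array, and 1 of the 13 guides was detected on at least 3 arrays. Among leukocyte and inflammation miRNAs 1 of 6 star strands was detected, miR-150* on 1 array. Of the 5 miR-30 star strands miR-30a* alone was detected, of the 11 in the hair growth list miR-22* and miR-24-2*, of the 6 in the muscle and mesenchymal list miR-133a* and miR-199b*, of the 4 from the miR-23, miR-27 and miR-24 clusters miR-24-2* and miR-27b*. The adipocyte-linked list had 1 of 3 (miR-378*) and the neuronal list 1 of 6 (miR-34c*). A miRNA may be in more than 1 list, and 36 members are in none. Since 26 of the 114 members were detected at least once, counts of 0 in lists this small do not set a family apart.

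The star strand detected on all 6 arrays was miR-140*. miR-140 is best known from cartilage. The raw intensity of miR-140* was 429, 1357 and 731 in AA replicates 1 to 3 and 516, 1347 and 528 in unaffected replicates 1 to 3, or 1.28 to 6.83 times the detection level of the same array. The probe of its guide was not detected on any array, at 156 to 543. Background-corrected, the miR-140* signal was 3.01, 8.73 and 2.55 times that of miR-140 in AA replicates 1 to 3 and 4.56, 13.0 and 4.11 times in unaffected replicates 1 to 3. Since the guide has only an upper limit, the bounds are at least 2.43, 2.92 and 2.05-fold in AA and at least 1.61, 11.4 and 3.10-fold in unaffected skin. The star was the brighter probe on 6 of 6 arrays, and the groups overlapped. Probes differ in how strongly they bind, so a ratio of probe signals is not a ratio of strand copies.

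miR-3072* was detected on 5 of 6 arrays, with raw intensities of 419, 1554 and 631 in AA replicates 1 to 3 and 248, 1435 and 650 in unaffected replicates 1 to 3. The value in unaffected replicate 1 lay below the detection level of that array, 344. Its guide miR-3072 was detected on 0 of 6 arrays. On the arrays that detected the star, its signal exceeded that of the guide by at least 2.35, 3.42 and 1.39-fold in AA replicates 1 to 3 and at least 12.2 and 3.91-fold in unaffected replicates 2 and 3. miR-3072* has the highest GC content of the star strands printed here, 77.3%, and its nearest other probe on the array differs by 8 edits. As for miR-140*, unaffected replicate 2 gave the highest ratio.

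The let-7 pairs had bright guides and dim stars. let-7d, a member of the let-7 family with a deviating first base, had raw intensities of 3771, 5030 and 1153 in AA replicates 1 to 3 and 6903, 9342 and 11820 in unaffected replicates 1 to 3. Its star let-7d* had 240, 430 and 546 on the AA arrays and 705, 348 and 376 on the unaffected ones. The star was detected on all 3 unaffected arrays, at 1.65 to 2.05 times the detection level, and on 1 of 3 AA arrays, replicate 1, where it exceeded that level by 0.19%. Background-corrected, the let-7d* signal was 3.64% of the guide signal in AA replicate 1 and 9.26%, 3.11% and 2.68% in unaffected replicates 1 to 3. On the other 2 AA arrays the guide was at least 12.3-fold (replicate 2) and 4.72-fold (replicate 3) the brighter.

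Detection of let-7b* came from 1 AA array and 2 unaffected arrays, by small margins: 5.52% above the detection level in AA replicate 3 and 2.69% and 4.74% in unaffected replicates 2 and 3. Its signal was 6.94% of that of let-7b in AA replicate 3 and 1.48% to 1.50% in unaffected replicates 2 and 3. On the arrays that did not detect it, let-7b was at least 16.1 to 49.2-fold the brighter. let-7b* differs by 2 edits from let-7f*, and the part of shared binding was not tested.

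On the arrays that detected it, miR-674* came closest to parity among the pairs with both strands detected on at least 3 arrays. It was detected in AA replicate 3, where it exceeded the detection level by 0.36%, and in unaffected replicates 2 and 3, by 16.4% and 17.8%. There its signal was 86.2%, 42.3% and 62.7% of that of miR-674. In AA replicates 1 and 2, which did not detect the star, the guide was at least 2.13 and 1.76-fold the brighter. Its guide was detected on 5 of 6 arrays.

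Detection of miR-712* came from AA replicates 1 and 3 and from unaffected replicate 2. In mouse endothelium miR-712 was described as a product of pre-ribosomal RNA. Its raw intensity was 242, 475 and 662 in AA replicates 1 to 3 and 185, 223 and 216 in unaffected replicates 1 to 3. It exceeded the detection level by 1.01% and 15.7% in AA replicates 1 and 3 and by 13.2% in unaffected replicate 2. The guide miR-712 was detected on 2 of 6 arrays, AA replicate 3 and unaffected replicate 2, where the star gave 1.55 and 1.17 times its signal. In AA replicate 1 the star exceeded the guide by at least 1.02-fold, and no ratio is given for the other arrays. Both probes thus stood near the empty-spot level.

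miR-199b*, the 5p strand of a miRNA of mesenchymal cells, passed the detection level in AA replicates 1 and 3 and unaffected replicates 2 and 3. Its raw intensity was 253, 399 and 611 in AA replicates 1 to 3 and 223, 263 and 379 in unaffected replicates 1 to 3. Its target differs by 1 edit from that of miR-199a-5p, which was detected on 5 of 6 arrays with raw intensities of 418 to 820. The part of miR-199a-5p in the miR-199b* signal was not tested.

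**Figure D2:**
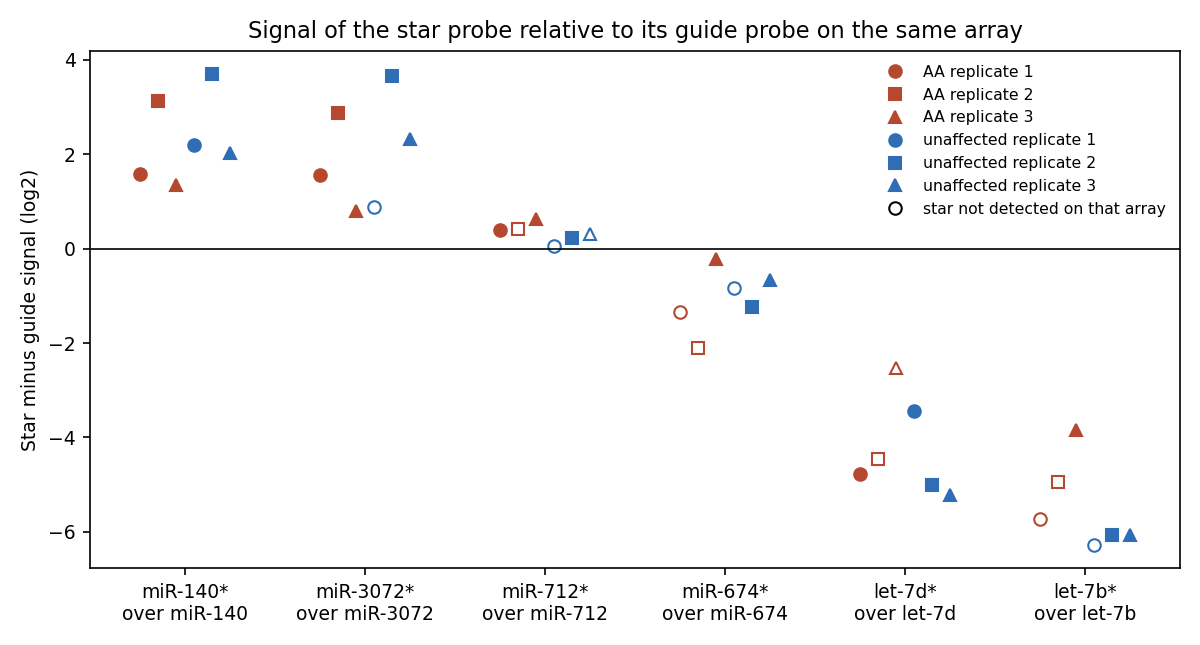
Background-corrected signal of the star probe minus that of its guide probe on the same array (vertical axis, log2), for the 6 matched pairs whose star was detected on at least 3 arrays. Each symbol is an array, AA in red and unaffected in blue, open where the star was not detected. miR-140* and miR-3072* lie above the line of equal signal on all arrays, while miR-674*, let-7d* and let-7b* lie below it.

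No star strand was detected on a single array in AA replicates 1 and 2 or unaffected replicate 1. Of the 6 detected on 2 arrays, miR-22*, miR-24-2*, miR-30a*, miR-34c* and miR-133a* were detected in unaffected replicates 2 and 3 and on no AA array. These were the arrays with the highest signal over the empty spots. The part of this in the split between the groups was not tested, and no fold change is given for them. let-7f* was detected in AA replicate 3 and unaffected replicate 2. Of the 13 detected on 1 array, 6 were detected in AA replicate 3 (miR-191*, miR-294*, miR-299*, miR-483*, miR-485* and miR-872*), 5 in unaffected replicate 2 (miR-27b*, miR-136*, miR-150*, miR-378* and miR-1982*) and 2 in unaffected replicate 3 (miR-28* and miR-431*).

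Within this group the clearest signals were those of miR-133a*, miR-22* and miR-24-2*. miR-133a* belongs to a hairpin of striated muscle and stood at 339 and 250 in unaffected replicates 2 and 3, which is 71.9% and 9.26% above the detection level. It stood at 148 to 540, below that level, on the other arrays. Its guide miR-133a was brightest on the same 2 arrays, at a normalized log2 intensity of 13.42 and 12.29 against 11.47 to 11.98 elsewhere. The muscle miRNA miR-1 was likewise highest there, at 13.78 on both, against 9.25 to 12.09, and so was miR-133b. The muscle miRNA miR-206 was instead highest in AA replicate 3, at 10.35, against 9.99 and 9.90 in unaffected replicates 2 and 3. The part of muscle content in the detection of miR-133a* was not tested.

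miR-22*, from a hairpin active in the hair cycle, stood at 338 and 282 in unaffected replicates 2 and 3 (71.5% and 23.4% above the detection level). There its signal was 7.05% and 13.6% of that of miR-22, which was detected on all 6 arrays. miR-24-2* stood at 266 and 369 (35.0% and 61.3% above) and at 1.88% and 3.74% of miR-24. miR-34c*, from a hairpin induced by the tumour suppressor p53, exceeded the level by 15.6% and 12.8%, and its guide miR-34c was not detected on any array.

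Several of the remaining detections rested on few spots. miR-136* passed in unaffected replicate 2 with 1 of its 5 spots above the detection level and an SD between spots of 0.81 on the log2 scale. miR-431* passed in unaffected replicate 3 with 2 of 5 spots and an SD of 0.60. miR-27b* and miR-28* also passed with 2 of 5 spots, by 0.42% and 1.09%. For the 7 star strands detected on at least 3 arrays the median SD between spots over the arrays was 0.11 to 0.16. Among the 88 never detected, the 5 of highest mean normalized intensity were miR-30c-1*, miR-425*, miR-200b*, miR-411* and miR-30c-2*, which reached at most 0.949 to 0.999 times the detection level on any array.

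AA was compared with unaffected skin on normalized log2 intensities, to ask which strands differ with disease. No star strand differed after adjustment: 0 of the 7 tested passed, and 0 of all 157 miRNAs tested, or 0% (limma with Benjamini-Hochberg adjustment, smallest adjusted p = 0.402 over all and 0.566 among star strands). The means of miR-140*, miR-3072*, miR-712*, let-7b* and miR-199b* were the higher ones in AA and those of let-7d* and miR-674* the lower. At an unadjusted p under 0.05, 1 star strand (let-7d*) was lower in AA, where 5.1% of all miRNAs tested were lower at that level and 7.64% differed in either direction. The groups did not overlap for 2 of the 7 (1 higher, miR-712*, against 4.46% of all miRNAs tested, and 1 lower, let-7d*, against 7.01%), where 11.5% of all did not overlap in either direction. The median log2 difference was 0.29 over the 7 star strands and -0.039 over all 157. A star strand entered the test through detection on 3 of 6 arrays, which need not fall evenly on the groups, so these counts do not describe all 114 members.

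**Figure D3:**
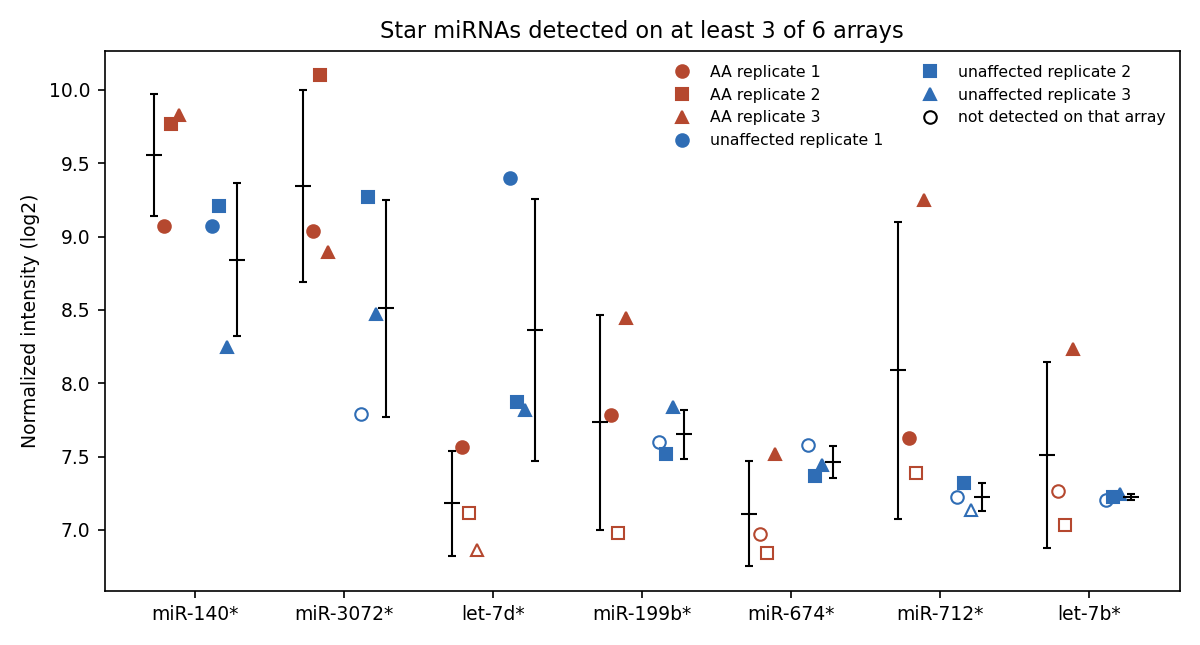
Normalized intensity (vertical axis, log2) of the 7 star miRNAs detected on at least 3 of 6 arrays. Each symbol is an array, AA in red and unaffected in blue, open where the star was not detected, with the mean ± SD of each group of 3 in black. The groups separate for let-7d* and miR-712*, in part through values below the detection level (open symbols), and the AA value of miR-712* is drawn up by replicate 3.

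let-7d* measured 7.57, 7.12 and 6.86 in AA replicates 1 to 3 and 9.40, 7.87 and 7.82 in unaffected replicates 1 to 3. The AA values lay below the unaffected ones, and unaffected replicate 1 stood apart from the others. In AA replicates 2 and 3 the star was not above background, and the lowest detected probe of AA replicate 2 stood at 8.10, above the let-7d* values of unaffected replicates 2 and 3. The separation of the groups therefore rests in part on background values, and at those levels let-7d* would not have been called detected in AA replicate 2. The AA mean was 7.18 ± 0.36 and the unaffected mean 8.36 ± 0.90 (SD, n = 3 arrays per group) (log2 difference -1.18, SE 0.49, limma adjusted p = 0.566), and no fold change is given because 2 of the 3 AA values are background. Without unaffected replicate 1 the difference was -0.66. When each array was scaled by the 75th percentile of its universally detected probes, it was 0.050, where the median of all tested miRNAs was 0.53. Its guide let-7d measured 11.93 ± 0.63 and 12.30 ± 0.57 (difference -0.37, SE 0.46).

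miR-712* measured 7.63, 7.39 and 9.25 in AA replicates 1 to 3 and 7.22, 7.32 and 7.13 in unaffected replicates 1 to 3. The AA values were the higher ones, replicates 1 and 2 by little and replicate 3 clearly. The star was not above background in AA replicate 2 and unaffected replicates 1 and 3, where the lowest detected probes stood at 8.10, 8.47 and 7.10. The order of the values other than that of AA replicate 3 is thus largely an order of background values. The log2 difference of 0.86 (SE 0.50, limma adjusted p = 0.641) was 0.28 without AA replicate 3 and 0.39 after removal of the array-wise dependence on the GC content of targets (the GC trend), a setting added after the data were seen.

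miR-3072* measured 9.04, 10.10 and 8.90 in AA and 7.79, 9.27 and 8.47 in unaffected replicates 1 to 3. The groups overlapped, and the means of 9.34 ± 0.66 and 8.51 ± 0.74 differed by 0.83 (SE 0.50, limma adjusted p = 0.641). The difference was 0.46 without AA replicate 2, 0.47 without unaffected replicate 1, and 0.10 with the GC trend removed. Log2 intensity changed with target GC content by 0.0068 to 0.17 per 10 percentage points on the AA arrays and by -0.36 to -0.077 on the unaffected ones, without overlap, and miR-3072* and miR-712* have target GC contents of 77.3% and 68.2%. Since the trend separates by group, its removal also takes out any group difference shared by GC-rich targets. The part of the trend in their differences cannot be told apart from the group.

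miR-140* measured 9.08, 9.77 and 9.83 in AA and 9.08, 9.20 and 8.25 in unaffected replicates 1 to 3. The lowest AA array equalled unaffected replicate 1, and the difference of 0.71 (SE 0.42, limma adjusted p = 0.641) was larger than the SD of either group, 0.42 in AA and 0.52 in unaffected skin, and did not pass the test. It became -0.50 under scaling by the 75th percentile over all probes and -0.40 with no scaling between arrays, settings under which the median of all tested miRNAs was -0.95 and -0.84. miR-140* lay above those medians, as did every other star strand tested except let-7d*. No direction for miR-140* is drawn from this.

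The other 3 differences were smaller. miR-674* measured 7.11 ± 0.36 in AA and 7.46 ± 0.11 in unaffected skin (difference -0.35, SE 0.37), let-7b* 7.51 ± 0.63 and 7.22 ± 0.020 (0.29, SE 0.41), and miR-199b* 7.73 ± 0.73 and 7.65 ± 0.17 (0.080, SE 0.44). let-7b* was drawn up by AA replicate 3 at 8.23, against 7.04 to 7.27 on the other 5 arrays, and its difference was -0.070 without that array. The same array held the highest values of miR-199b* (8.44) and miR-712*. AA replicate 3 had the lowest signal over the empty spots of all arrays, 1.46 times, and the part of this in the values was not tested.

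**Figure D4:**
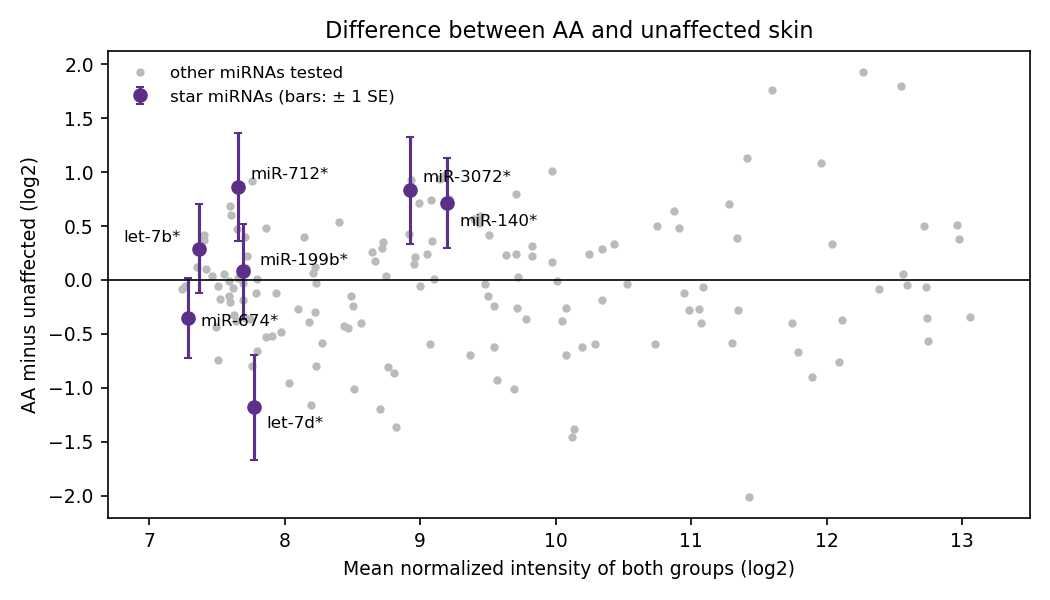
Difference between AA and unaffected skin (vertical axis, log2, AA minus unaffected) against mean normalized intensity (horizontal axis, log2) for the 157 miRNAs tested, with the 7 star miRNAs in purple (bars: ± 1 SE of the limma fit) and the others in grey. The star miRNAs lie between -1.18 and 0.86, within the range of the other miRNAs, and mostly at low intensity.

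The guides of the members were read from the same fit. Of the 48 guides of the same name that were tested, 16 had higher and 32 lower means in AA, with a median log2 difference of -0.16, and 0 passed the adjusted threshold in limma. Before adjustment, 5 guides lower in AA and 0 higher had a p under 0.05. Of all 157 miRNAs tested, 73 had higher and 84 lower means, and 5.1% were lower and 2.55% higher at that level.

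The ratio of star to guide on the same array used no normalization between arrays, but for dim stars it depends on the background correction and its offset. It was compared between the groups for the 3 pairs with both strands detected on at least 3 arrays. The let-7b* to let-7b log2 ratio averaged -4.85 ± 0.95 over the AA arrays and -6.14 ± 0.12 over the unaffected ones (SD, n = 3 arrays per group), with no overlap (difference 1.29, exact permutation test, two-sided, p = 0.1, the smallest possible, and 0.3 after Benjamini-Hochberg adjustment over the 3 pairs). The star was below the detection level on 2 AA arrays and 1 unaffected array, so that the ratio there holds a background value over the guide. The difference was -0.21 on quantile-normalized values and -0.27 on the authors' deposited value table. The let-7d* ratio was -3.92 ± 1.22 and -4.55 ± 0.98 (difference 0.63, exact permutation p = 0.5, adjusted 0.6). It became -0.067 without AA replicate 3, -0.81 on quantile-normalized values, -1.27 on the deposited value table and -3.02 with the empty-spot median subtracted and no offset, and was 0.41 with an offset of 16. The miR-674* ratio was -1.22 ± 0.95 and -0.92 ± 0.29 (difference -0.31, exact permutation p = 0.6, adjusted 0.6). Groups of 3 cannot give a p under 0.1. Among untested pairs, the ratio was higher in AA for each whose guide was detected on all 6 arrays and star on 1 or 2. Their differences ran from 0.73 (miR-150*) to 2.80 (let-7f*), with stars mostly at background values. A higher ratio in AA was thus not particular to let-7b*, and its cause was not tested.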

How the data were processed

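The intensity values deposited by the authors, per the file headers, are the raw mean of each spot's pixels, with no background subtraction or normalization. Per the labels' protocols, RNA was tailed with poly(A), ligated to a tag for later Cy3 dye staining, and hybridised on microfluidic chips. The extract protocol instead names biotin-labelled complementary RNA, and which labelling applied is not known. Each array held 3968 spots, 5 per miRNA probe. The image software used and the miRBase release were not given in the sources used here. The authors also deposited a table of processed linear intensity, made by an unstated method, which served as an alternative.

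Background was corrected with normexp (offset 50) in limma 3.58.1 (R 4.3.3). Log2 values of a probe's spots were averaged and quantile-normalized over the 707 miRNA probes, and the 157 detected on at least 3 arrays were tested with lmFit and eBayes (two-sided, Benjamini-Hochberg, threshold 0.05). Strand ratios used background-corrected values without normalization between arrays. A bound on an undetected probe took the higher of its own value and the lowest detected value of that array. The offset compresses differences of dim probes. Named were all star strands detected on at least 3 arrays, those on 1 or 2 arrays, and the 5 brightest of the rest. The members, lists and tests were chosen with earlier results of these data known. Alternatives varied background, normalization, filters, detection level, source, variance model, spot summary and block, and left out each array. In simulated data on the 157 miRNAs 20.5% of changes of 2-fold were recovered, 75% of those of 4-fold and 93% of those of 8-fold. The labels do not tie replicate numbers to mice. Exact tests used SciPy 1.17.1. The number of arrays limits the precision.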

Additional observations from a re-analysis of the deposited data

How the results depend on the processing

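The count of star strands past the adjusted threshold was 0 under all 20 alternatives, including the removal of the GC trend, which was added after the data were seen. The count over all miRNAs ran from 0 to 5 with arrays left out (5 without unaffected replicate 1, 2 without unaffected replicate 2, in neither case a star strand) and was 0 otherwise. The replicate number as a block gave 0 calls and a difference of -1.18 for let-7d*. Same-numbered arrays deviated from their group means with correlations of 0.14, -0.10 and -0.12, which cannot show whether they pair. The numbers were not taken as pairs because the labels do not tie them to mice.

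Star strands detected on at least 3 arrays numbered 7. They numbered 4 with the 99th percentile or the maximum of the empty spots, 4 where every spot had to pass, 3 with the median plus 3 median absolute deviations, 9 with the 90th percentile, and 4 to 7 with arrays left out (4 without AA replicate 3 or unaffected replicate 2). miR-140* was detected on 6 arrays under every level tried and its guide on 0. The star minus guide share ran from -38.1 to -34.9 points with arrays left out, where 5 arrays allow no p under 0.0625.

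Directions that turned were as follows. Under scaling by the 75th percentile of universally detected probes, let-7d* was 0.050 and miR-674* 1.08 (median of all 0.53). Scaled to all probes, miR-140* was -0.50, miR-199b* -0.39 and miR-3072* -0.32 (median -0.95). Without normalization they were -0.40, -0.28 and -0.22 (median -0.84). miR-199b* was -0.11 on the deposited table and -0.0013 with the median of spots. With arrays left out, let-7b* ran from -0.070 to 0.53 and miR-199b* from -0.27 to 0.46. miR-712* stayed higher in AA under its 19 alternatives (0.28 to 1.91). The lowest difference was that without AA replicate 3. The highest came under scaling by universally detected probes, where the median of all was 0.53. Its values in AA replicate 2 and unaffected replicates 1 and 3 were below the detection level. The ratio difference of let-7b* was -0.21 on quantile-normalized and -0.27 on deposited values, and 0.79 to 1.73 with arrays left out. That of let-7d* was -0.81, -1.27 and, with the empty-spot median subtracted, -3.02, and ran from -0.067 to 1.19 with arrays left out. That of miR-674* ran from -0.81 to 0.14 with arrays left out, and was -1.76 with the empty-spot median subtracted, -1.72 on deposited and -0.89 on quantile-normalized values. The cause was not tested.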
